A study of Mus musculus with 2 samples.

Results

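Naive-type CD4 T cells that carry transcripts of interferon-inducible GTPases were examined among immune cells of the mouse pancreas. A barcode counted as naive-type CD4 when it had at least 2 unique molecular identifiers (UMIs, 1 per captured transcript) of Cd3d, Cd3e and Cd3g together, at least 1 of Cd4, none of Cd8a, Cd8b1 or Foxp3, at most 1 of Cd79a, at least 2 of the naive T cell genes Lef1, Igfbp4 and Dapl1 together, and under 4 of 7 cell cycle genes. Signature cells were then selected on the readout itself, as barcodes with 3 or more UMIs of Iigp1, Igtp and Gbp4 together, and the others are called the rest. There were 100 signature cells among 3913 kept cells, 80 of 2804 at 12 weeks and 20 of 1109 at 7 weeks. The rest held 202 and 52 cells.

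The groups were female NOD/ShiLtJ mice aged 12 weeks and 7 weeks, a strain that develops autoimmune diabetes spontaneously. Pancreatic CD45.1+ cells were sorted and captured with 10x Genomics Chromium 3' chemistry, which reads transcript ends. No treatment or altered allele is given in the labels. Each age had 1 library, so age and library cannot be told apart, and how many mice went into it is not stated in the sources used here.

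The immunity-related GTPases (Iigp1, Igtp, Irgm1 and relatives) and the guanylate-binding proteins (Gbp4, Gbp2, Gbp7 and relatives) are families of proteins. They include members that attack the membranes of vacuoles holding intracellular microbes. Their genes are switched on mainly by interferon-gamma, which signals through the kinases Jak1 and Jak2 and acts at GAS elements, and in part by type I interferons, which act at ISRE elements. Naive T cells carry the receptors for both. In islets of NOD mice interferon-gamma is made mainly by activated T cells and natural killer cells.

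Signature cells and the rest were sequenced to like depth. The median was 4622.5 UMIs and 1435 genes in signature cells and 4537 UMIs and 1438 genes in the rest at 12 weeks, and 5208 UMIs and 1575.5 genes against 5512 UMIs and 1663.5 genes at 7 weeks. The libraries shared 2 barcodes, none of them in the gate. Some single cells stood apart. In the 12 week rest, 1 cell of 12764 UMIs held 1152 UMIs of 8 stromal genes such as Col1a1 and Dcn, where all other gated cells of that library held 9. Among the 7 week signature cells, 1 cell of 23541 UMIs held 17.0% of that group's UMIs. It had 5 UMIs of Igtp and none of Iigp1 or Gbp4. The next deepest cell of that group, of 15551 UMIs, held 20 of its 101 gating UMIs, 46 of 193 UMIs of other GTPases and 170 of 569 UMIs of type I interferon response genes. In the 7 week rest, 1 cell of 14306 UMIs held 122 of the 191 UMIs of B cell markers, 71 of 140 of myeloid, 73 of 102 of plasmacytoid dendritic cell and 50 of 57 of NK cell markers. The main results that changed without one of these cells are given without it as well, and smaller changes are not all listed.

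Markers of the label were counted. The gate selects on Lef1, so its share in gated cells was largely set in advance and is no check of the label. Lef1, a transcription factor of naive T cells and a gene of the gate, was seen in 79 of 80 signature cells at 12 weeks (98.8%) and 191 of 202 of the rest (94.6%), against 2.08% of B cells, which should lack it. Ccr7, the homing receptor for lymph nodes and no gene of the gate, was seen in 73.8% of signature cells (62.7 to 83.0%) and 60.9% of the rest (53.8 to 67.7%) at 12 weeks, and in 90% (68.3 to 98.8%) and 61.5% (47.0 to 74.7%) at 7 weeks. B cells also use Ccr7 and are no measure of background for it. Intervals of shares are exact (Clopper-Pearson, 95%), those of UMI sums are exact Poisson and those of ratios exact conditional binomial. All cover counting error only, treat UMIs as independent and leave out differences between mice.

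The gating genes themselves were mostly found together. At 12 weeks 25 of the 80 signature cells held UMIs of all 3 genes, 42 of 2 genes and 13 of 1 gene, which was Igtp alone in 11 of them. At 7 weeks the numbers were 7, 10 and 3 of 20 cells. The median was 4 UMIs of the 3 genes per signature cell in each library, with a maximum of 29 at 12 weeks and 20 at 7 weeks. Igtp (Irgm3) was the most abundant: it was seen in 88.8% of signature cells and 36.1% of the rest at 12 weeks, and in 95% and 23.1% at 7 weeks. Gbp4 was seen in 75% and 20.3% at 12 weeks and in 85% and 11.5% at 7 weeks. Iigp1 (Irga6) was seen in 51.2% and 10.4% at 12 weeks and in 40% and 3.85% at 7 weeks. These values chose the cells and are no finding. The rest is thus not free of these transcripts, and the gate divides a continuous range.

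**Figure D1:**
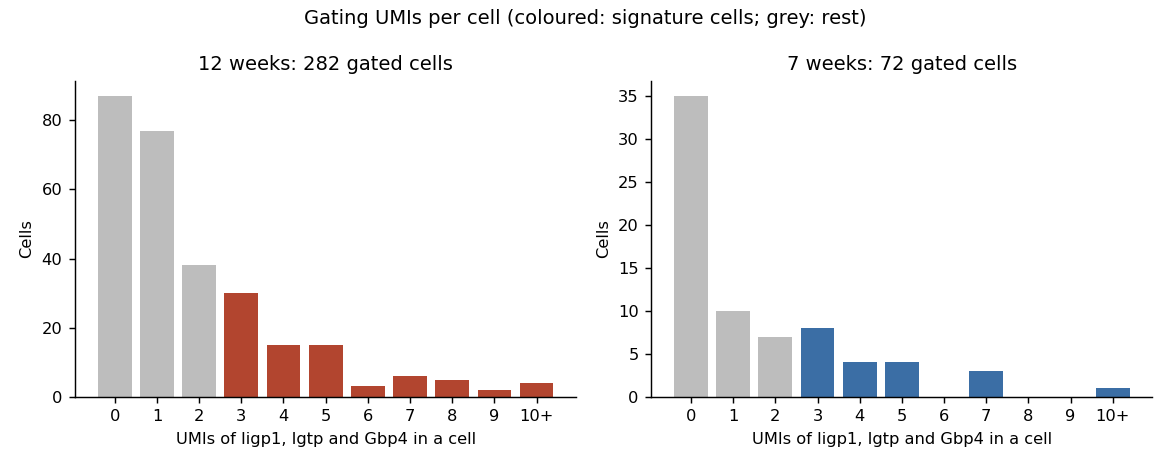
Number of cells (y axis) by the summed UMIs of Iigp1, Igtp and Gbp4 in a cell (x axis, 10 and above joined) in the 12 week and the 7 week library. Coloured bars are the 80 and 20 signature cells with 3 or more UMIs, grey bars the 202 and 52 cells of the rest, and no gap parts them.

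The share of naive-type CD4 cells that passed the threshold was alike in the libraries. It was 28.4% at 12 weeks (80 of 282 cells, 23.2 to 34.0%) and 27.8% at 7 weeks (20 of 72 cells, 17.9 to 39.6%), a ratio of 1.02 (0.620 to 1.76). Naive-type CD4 cells as a whole were 10.1% of kept cells at 12 weeks (8.97 to 11.2%) and 6.49% at 7 weeks (5.11 to 8.11%), a ratio of 1.55 (1.19 to 2.04). Signature cells were accordingly 2.85% (2.27 to 3.54%) and 1.80% (1.10 to 2.77%) of kept cells, with a ratio of 1.58 (0.960 to 2.73) whose interval spans 1. With 1 or more gating UMIs the shares of the gate were less alike, at 69.1% (63.4 to 74.5%) at 12 weeks and 51.4% (39.3 to 63.35%) at 7 weeks. Thinned to 2000 UMIs, the shares with 1 or more had a ratio of 1.44 (0.921 to 2.36). With 1 library per age no test was possible. When each cell was thinned to 2000 UMIs, 10.3% of the gate (7.00 to 14.4%) at 12 weeks and 8.33% (3.12 to 17.3%) at 7 weeks kept 3 or more UMIs, and no cell was too shallow to be thinned.

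Naive-type CD4 cells were not alone in passing the same threshold. Naive-type CD8 cells, defined in the same way with Cd8a and Cd8b1 in place of Cd4, passed it in 26.9% of cells at 12 weeks (60 of 223, 21.2 to 33.2%) and 24.6% at 7 weeks (16 of 65, 14.8 to 36.9%). Foxp3-positive T cells passed it in 35.8% (29 of 81, 25.4 to 47.2%) and 24.1% (14 of 58, 13.9 to 37.2%). CD4 cells with under 2 UMIs of the naive genes passed it in 17.1% (73 of 426, 13.7 to 21.1%) and 14.2% (30 of 212, 9.76 to 19.6%), and the matching CD8 cells in 7.42% (17 of 229, 4.38 to 11.6%) and 12.4% (12 of 97, 6.56 to 20.6%). B cells were lowest, at 6.24% (30 of 481, 4.25 to 8.78%) and 5.36% (6 of 112, 1.99 to 11.3%). Between naive-type CD4 cells and the other CD4, other CD8 and B cells of 12 weeks the intervals did not overlap, while those of naive-type CD8 and Foxp3-positive cells overlapped the CD4 interval in both libraries. At 7 weeks the interval of naive-type CD4 cells overlapped those of other CD4 and other CD8 cells as well, though not that of B cells. After thinning to 2000 UMIs the share with 3 or more was 6.28% and 4.62% of naive-type CD8 and 6.17% and 3.45% of Foxp3-positive cells, with intervals that overlapped that of naive-type CD4 cells. The order of classes was not stable: with 1 or more gating UMIs after thinning, naive-type CD4 cells were at 46.1% and 31.9%, naive-type CD8 cells at 42.2% and 38.5% and Foxp3-positive cells at 50.6% and 43.1%.

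**Figure D2:**
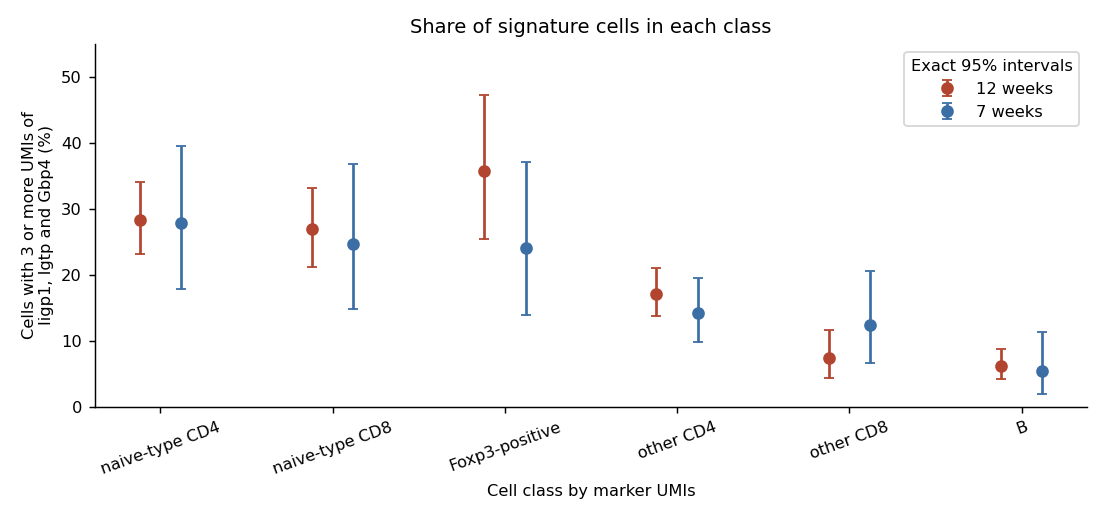
Percentage of cells with 3 or more UMIs of Iigp1, Igtp and Gbp4 (y axis) in 6 cell classes (x axis), 12 weeks to the left of 7 weeks within each class. Points are shares and bars exact 95% intervals. Naive-type CD4 cells stand at 28.4% and 27.8%, close to naive-type CD8 cells at 26.9% and 24.6% and above B cells at 6.24% and 5.36%.

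Outside the gating genes, other GTPases and interferon response genes were higher in signature cells. Gbp2, Gbp7, Ifi47, Ly6a and Zbp1 were each over 2-fold higher in both libraries, naive T cell genes differed by at most 1.56-fold at 12 weeks, and Izumo1r, a gene of anergic and regulatory CD4 cells, was lower in both. Genes were described by their summed UMIs per 1000000 UMIs (counts per 1000000, CPM) in signature cells over the rest of the same library. A gene is called higher or lower where the ratio was at least 1.5-fold with an interval that excludes 1, among genes with at least 30 UMIs over both groups. At 12 weeks 104 genes were higher (2.42% of 4297) and 198 lower (4.61%), and at 7 weeks 65 were higher (4.07% of 1599) and 75 lower (4.69%). Median-of-ratios scaling turned the 12 week split into 138 higher and 151 lower genes, so 47.8% of called genes were higher in place of 34.4%. Leaving out mitochondrial and ribosomal genes from the total gave 129 and 160 (44.6%). The cells were parted by 3 genes of the same programme, so these counts describe the contrast and test nothing.

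Of the GTPases with at least 30 UMIs, Gbp2 had the highest ratio at 12 weeks. At 12 weeks it stood at 291 CPM in signature cells (113 UMIs) and 58.8 CPM in the rest (62 UMIs), a ratio of 4.94 (3.59 to 6.84). At 7 weeks it stood at 202 CPM (28 UMIs) and 62.6 CPM (19 UMIs), a ratio of 3.23 (1.74 to 6.13). No cell held over 28.6% of these sums, and 53.8% of signature cells had a UMI at 12 weeks against 19.8% of the rest. Gbp7, a neighbour of Gbp2 in the chromosome 3 cluster, was at 280.3 CPM and 65.5 CPM at 12 weeks, a ratio of 4.28 (3.14 to 5.87), and at 188 CPM and 59.3 CPM at 7 weeks, a ratio of 3.17 (1.67 to 6.14). Gbp2 (gene ENSMUSG00000028270) lies at chr3:142620602-142638008 and Gbp7 (ENSMUSG00000040253) at chr3:142530342-142550149, both on the plus strand of mm10. For both genes the share of cells with a UMI was over 2-fold higher among signature cells in each library.

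Among immunity-related GTPases, Ifi47 (Irgd) was at 450.0 CPM in signature cells and 156 CPM in the rest at 12 weeks, a ratio of 2.89 (2.32 to 3.599). At 7 weeks it was at 347 CPM and 112 CPM, a ratio of 3.10 (1.96 to 4.96). Irgm1, which in mice keeps the effector GTPases off host membranes, was at 144 CPM and 51.2 CPM at 12 weeks, a ratio of 2.81 (1.90 to 4.16), and at 137 CPM and 39.5 CPM at 7 weeks, a ratio of 3.47 (1.60 to 7.85). Ifi47 (ENSMUSG00000078920) lies at chr11:49076587-49096974 and Irgm1 (ENSMUSG00000046879) at chr11:48861968-48871683, on the chromosome that also holds Igtp. Without the deepest 7 week cell Irgm1 held 14 and 12 UMIs at 7 weeks, below the minimum of 30, and a ratio of 3.08 (1.32 to 7.30). The intervals of the 2 libraries overlapped for both genes. The other members measured at 12 weeks were Gbp3 at 3.29 (1.53 to 7.21), Gbp9 at 3.01 (1.73 to 5.26), Gbp8 at 1.60 (1.03 to 2.45), Tgtp2 at 1.49 (0.645 to 3.26) and 9930111J21Rik2 at 0.979 (0.674 to 1.40). The annotated spans of Gbp8 and Gbp9 overlap that of the gating gene Gbp4, and Irgm2 overlaps Igtp, so their reads may not be separable from the gate. Tgtp1 and Tgtp2 are near-identical copies, as are Gbp6 and Gbp10, and how the authors' counting split them is uncertain.

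In all, the 24 listed GTPase symbols gave 22 entries, Gbp6 having more than 1, while Gm12250, Gbp11 and Mx2 had no entry under those symbols. At 12 weeks 9 reached 30 UMIs, of which 7 were higher, none lower and 2 neither, with a median log2 ratio of 1.53 against -0.06 over all 4297 genes. At 7 weeks 5 reached it, of which 4 were higher, with a median log2 ratio of 1.65 against 0.01 over 1599 genes. Without the deepest or without the next deepest 7 week cell 4 reached it there, of which 3 were higher, with medians of 1.75 and 1.37. Below that minimum, 12 week signature cells held 14 UMIs of Tgtp1 against 9 in the rest, 13 of Gbp6 against 7, 10 of Gbp5 against 6, 6 of Irgm2 against 11 and 3 of Gbp2b against 1. Gm4951, 9930111J21Rik1, Gbp10 and Mx1 had at most 2 UMIs in either group of that library, and F830016B08Rik, Gm5431 and Gvin1 had none. Summed over the list, GTPases outside the gate were at 1640 CPM and 597 CPM at 12 weeks, a ratio of 2.75 (2.46 to 3.07), and at 1394 CPM and 494 CPM at 7 weeks, a ratio of 2.82 (2.27 to 3.52). Without the next deepest 7 week cell that ratio was 2.42 (1.92 to 3.06), and without both deep cells 2.55 (1.99 to 3.25). Per cell the median was 7 UMIs in signature cells against 2 in the rest at 12 weeks, and 7 against 3 at 7 weeks. All 80 signature cells of 12 weeks and 19 of 20 of 7 weeks held at least 1 such UMI, against 173 of 202 (85.6%) and 41 of 52 (78.8%) cells of the rest. Gbp8, Gbp9 and Irgm2, whose spans overlap gating genes, are in every sum of this list, also in other classes and between ages. Gbp8 and Gbp9 are among the 7 higher members of 12 weeks and in their median. No value of the list without these genes was computed, so part of it may reflect the gate.

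**Figure D3:**
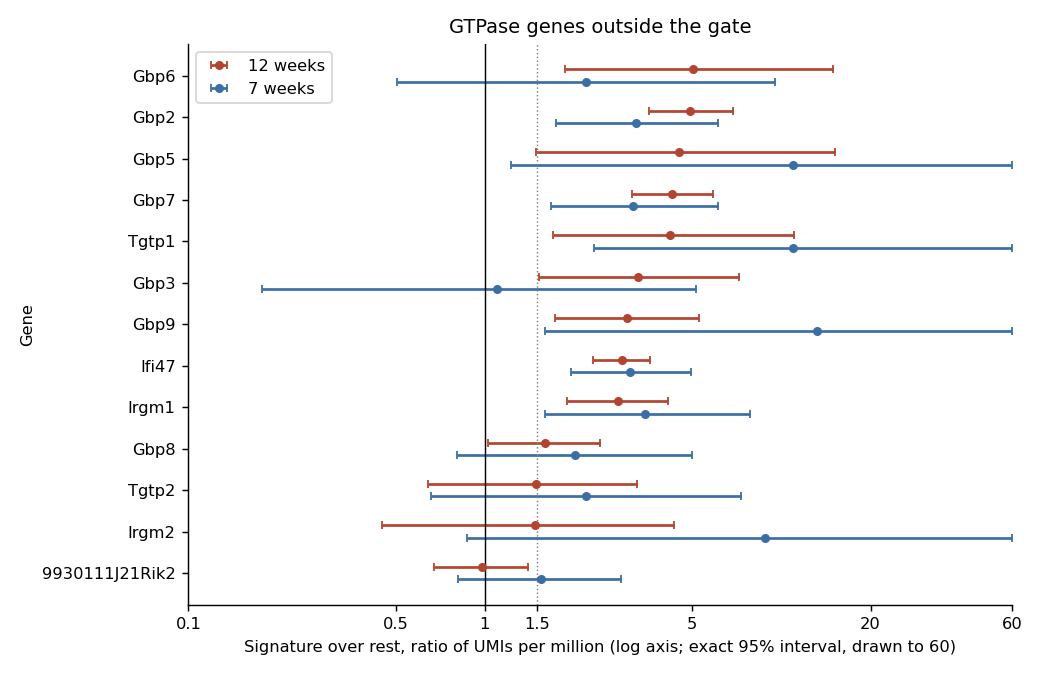
Ratio of CPM in signature cells over the rest (x axis, log scale) for GTPase genes outside the gate with at least 10 UMIs at 12 weeks (y axis). Points are ratios and bars exact 95% intervals, 12 weeks above 7 weeks for each gene. The solid line marks 1 and the dotted line 1.5. Gbp2 stands at 4.94 and 3.23, Ifi47 at 2.89 and 3.10, and 9930111J21Rik2 at 0.979 and 1.54.

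Promoters of 4 GTPase genes are printed to show which interferon elements they share: Igtp, the most abundant gating gene, Gbp7 and Gbp2, the members with the highest 12 week ratios among those with 100 or more UMIs, and Irgm1. They run 5' to 3' from 250 bases before to 50 bases after the annotated start, from RefSeq on GRCm38.p6, at chr11:58199306-58199605 (plus strand), chr3:142530086-142530385 (plus), chr3:142620413-142620712 (plus) and chr11:48871371-48871670 (minus). Capitals mark matches to the GAS pattern TTCNNNGAA and to the ISRE pattern, which is GAAA, 2 bases of any kind and GAAA again on either strand, so that it reads TTTC, 2 bases and TTTC where it lies on the opposite one. The GAS pattern reads alike on both strands.
Igtp: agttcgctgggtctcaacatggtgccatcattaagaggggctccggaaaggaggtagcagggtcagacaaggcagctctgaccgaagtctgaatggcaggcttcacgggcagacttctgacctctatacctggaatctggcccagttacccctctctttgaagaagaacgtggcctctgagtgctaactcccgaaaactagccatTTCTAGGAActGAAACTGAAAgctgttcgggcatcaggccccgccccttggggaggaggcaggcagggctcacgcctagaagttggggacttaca
Gbp7: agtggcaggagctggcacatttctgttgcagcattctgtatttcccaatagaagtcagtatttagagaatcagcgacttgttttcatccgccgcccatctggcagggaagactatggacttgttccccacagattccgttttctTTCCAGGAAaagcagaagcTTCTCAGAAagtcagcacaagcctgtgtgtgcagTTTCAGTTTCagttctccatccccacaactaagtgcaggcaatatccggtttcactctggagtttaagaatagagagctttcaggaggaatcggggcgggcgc
Gbp2: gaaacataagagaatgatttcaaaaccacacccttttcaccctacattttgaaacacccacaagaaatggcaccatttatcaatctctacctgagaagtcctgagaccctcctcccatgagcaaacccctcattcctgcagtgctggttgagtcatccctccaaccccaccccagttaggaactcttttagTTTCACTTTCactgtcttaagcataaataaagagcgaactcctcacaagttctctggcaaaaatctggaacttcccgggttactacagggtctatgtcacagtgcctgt
Irgm1: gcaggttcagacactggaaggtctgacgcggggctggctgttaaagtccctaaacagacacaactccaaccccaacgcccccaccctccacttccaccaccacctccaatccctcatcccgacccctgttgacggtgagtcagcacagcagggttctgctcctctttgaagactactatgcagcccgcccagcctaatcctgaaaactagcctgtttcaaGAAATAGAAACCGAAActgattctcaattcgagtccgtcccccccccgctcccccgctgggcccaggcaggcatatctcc

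In the Igtp promoter a GAS match began 45 bases before the start and an ISRE match 34 bases before it. Gbp7 held GAS matches at 106 and 87 bases and an ISRE match at 53 bases before its start. Gbp2 held an ISRE match at 59 bases, and Irgm1 held overlapping ISRE matches at 30 and 24 bases, and neither had a GAS match in this window. Of 25 GTPase genes looked up, 15 had a promoter entry, of which 7 held a GAS match, 12 an ISRE match and 7 both. Over all 32851 promoters of that length 8.30% held a GAS match, 3.44% an ISRE match and 0.454% both. Ifi47 had neither. Matches to the 2 patterns did not overlap each other in the printed windows. A match describes letters and not a bound site.

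Irf9 was among the components of interferon signalling that were higher at 12 weeks, and Ifngr1 and Irf1 among those higher at 7 weeks. Irf9, a DNA-binding factor of the type I interferon pathway, had a ratio of 1.85 (1.301 to 2.61) at 12 weeks and 1.23 (0.590 to 2.46) at 7 weeks. Socs3, a feedback inhibitor of Janus kinases, had 1.54 (1.001 to 2.34) and 0.823 (0.386 to 1.64), and without the stromal cell its 12 week ratio was 1.52 (0.989 to 2.32), no longer called. Ifngr1, a chain of the interferon-gamma receptor, was at 185 CPM and 187 CPM at 12 weeks, a ratio of 0.990 (0.745 to 1.303). At 7 weeks it was at 188 CPM and 75.7 CPM, a ratio of 2.48 (1.36 to 4.55), on 26 and 23 UMIs. Irf1, a factor induced by interferon-gamma, had 1.41 (1.11 to 1.79) at 12 weeks and 1.82 (1.27 to 2.61) at 7 weeks. Of 16 listed receptor and signalling genes, 13 were measured and 3 higher at 12 weeks, 2 without the stromal cell, where 2.42% of all genes were higher. At 7 weeks 9 were measured and 3 higher, where 4.07% of all genes were, and none was lower in either library. Their median log2 ratio was 0.13 and 0.20. Jak1, the kinase shared by both receptors, had 0.923 (0.734 to 1.16) and 1.14 (0.758 to 1.69).

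Interferon-gamma response genes followed. Ly6a, which encodes the surface protein Sca-1, was at 1149 CPM in signature cells and 423 CPM in the rest at 12 weeks, a ratio of 2.72 (2.38 to 3.10). The stromal cell held 22.9% of the UMIs of the rest, and without it the ratio was 3.48 (3.01 to 4.01). At 7 weeks Ly6a was at 1033 CPM and 438 CPM, a ratio of 2.36 (1.85 to 3.01), but 1 cell held 39.2% of the signature sum and another 40.6% of that of the rest. Samhd1, a nucleotide hydrolase, had 1.60 (1.28 to 1.98) and 1.93 (1.26 to 2.95). Epsti1 had 1.55 (1.02 to 2.34) and 3.36 (1.75 to 6.59), with 46.2% of its 7 week signature UMIs in 1 cell, and 2.04 (0.929 to 4.39) at 7 weeks without the next deepest cell. Cd274, which encodes the inhibitory ligand PD-L1, had 2.86 (1.42 to 5.78) at 12 weeks on 19 and 18 UMIs. Of 25 listed genes, 17 were measured at 12 weeks, of which 8 were higher and Casp1 lower at 0.376 (0.115 to 0.962), with a median log2 ratio of 0.68. At 7 weeks 10 were measured, 6 higher and Irf8 lower, with a median of 0.74. Without the next deepest 7 week cell 4 of the 10 were higher and 1 lower, with a median of 0.63. Irf8 had a ratio of 2.55 (1.21 to 5.37) at 12 weeks, and at 7 weeks 0.343 (0.104 to 0.886), where the 1 cell of the rest with many B cell markers held 87.5% of the UMIs of the rest. Without that cell Irf8 was at 2.61 (0.562 to 13.2) on 5 and 4 UMIs, and without the deepest signature cell at 0.413 (0.126 to 1.07), so that none of the list was lower.

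Genes better known from the type I interferon response were also higher. Zbp1, a sensor of nucleic acids, was at 262 CPM and 96.8 CPM at 12 weeks, a ratio of 2.71 (2.04 to 3.6005), and at 253 CPM and 79.0 CPM at 7 weeks, a ratio of 3.20 (1.85 to 5.62). Rtp4 had 3.32 (2.01 to 5.52) and 8.78 (3.20 to 29.9), on 20 UMIs against 5 at 7 weeks. Parp9, an ADP-ribosyltransferase family member, had 4.06 (2.41 to 6.95) and 3.29 (1.05 to 11.2). Ddx58, which encodes the RNA sensor RIG-I, had 3.93 (2.15 to 7.33) at 12 weeks but 0.975 (0.219 to 3.49) at 7 weeks on 4 and 9 UMIs. Isg15, a ubiquitin-like modifier, was at 77.1 CPM and 44.6 CPM at 12 weeks, a ratio of 1.73 (1.06 to 2.79), and at 209 CPM and 49.4 CPM at 7 weeks, a ratio of 4.24 (2.20 to 8.51). In 7 week signature cells 1 cell held 37.9% of Isg15 and 37.1% of Zbp1. Of 42 listed genes, 20 were measured at 12 weeks, 10 higher and none lower, with a median log2 ratio of 0.62. At 7 weeks 11 were measured, 5 higher and none lower, with a median of 0.68. Without the next deepest 7 week cell 2 of 10 were higher there, with a median of 0.27, and the summed 7 week ratio was 1.27 (1.12 to 1.43) in place of 1.60 (1.44 to 1.79). Many of these genes respond to both kinds of interferon, so the lists cannot part the cytokines.

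Genes of antigen presentation by MHC class I had the smallest medians among the lists of interferon-induced genes. Of 16 measured at 12 weeks 4 were higher, Tap2 at 1.93 (1.43 to 2.58), Tapbpl at 1.61 (1.03 to 2.48), Psmb10 at 1.58 (1.25 to 1.99) and H2-T23 at 1.51 (1.24 to 1.83), and none was lower, where 2.42% of all genes were higher. B2m, the shared light chain, was at 5785 CPM and 4802 CPM, a ratio of 1.20 (1.15 to 1.27). At 7 weeks 2 of 15 were higher, Tapbp at 2.32 (1.41 to 3.83) and Psmb10 at 1.62 (1.08 to 2.42), where 4.07% of all genes were higher. Without the next deepest cell Psmb10 was at 1.34 (0.848 to 2.07) there and no longer called. The medians were 0.36 and 0.14 on the log2 scale.

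Among the 20 genes with the highest lower bound at 12 weeks, 12 stood on these interferon and antigen presentation lists. Over all 104 higher genes the number was 30, from 71 list genes among the 4297 tested. The named genes outside the lists were Sostdc1, Sfi1, Fam26f, Treml2, Pim2, Nampt, Nacc2 and Cd69. Sostdc1, a secreted BMP antagonist, rested on 2.50% of signature cells, 1 of which held 54.2% of its UMIs. Sfi1 had a ratio of 3.89 (2.22 to 6.93) with 33.3% of its signature UMIs in 1 cell. Fam26f had 3.28 (1.71 to 6.37), Treml2 2.95 (1.60 to 5.43), the kinase Pim2 3.22 (1.57 to 6.69), the NAD-synthesis enzyme Nampt 3.25 (1.55 to 6.93) and Nacc2 2.62 (1.53 to 4.48). Cd69, an early activation antigen that holds T cells in tissue, was at 612 CPM and 355 CPM, a ratio of 1.72 (1.46 to 2.03). At 7 weeks Cd69 was at 354 CPM and 435 CPM, a ratio of 0.814 (0.574 to 1.14), so its 12 week difference was not seen there.

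Of the 104 genes higher at 12 weeks, 38 were tested at 7 weeks, and 14 of them were higher there too. They make up 36.8% of those 38 and 21.5% of the 65 genes higher at 7 weeks, where 4.09% of the 1591 genes tested in both were higher. Among them were Gbp2, Gbp7, Ifi47, Irgm1, Ly6a, Zbp1, Isg15, Ifi203, Samhd1, Epsti1, Psmb10, Ppa1 and Idnk. Ppa1, an inorganic pyrophosphatase, had 1.74 (1.14 to 2.61) and 2.19 (1.12 to 4.30), and Idnk, a gluconate kinase, 1.59 (1.11 to 2.25) and 2.19 (1.16 to 4.15). Of the 38, 25 (65.8%) lay above 1 at 7 weeks, where 49.0% of all genes tested in both did, and Irf8 and Ifi27 were lower there. Without the next deepest 7 week cell the 7 week call was lost for Epsti1, Psmb10, Irgm1 and Ifi203, the last at 1.42 (0.984 to 2.02). Without the deepest 7 week cell 53 genes were higher there (3.59%) and 74 lower (5.01%), and the GTPase, interferon-gamma and type I medians were 1.75, 0.72 and 0.93.

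**Figure D4:**
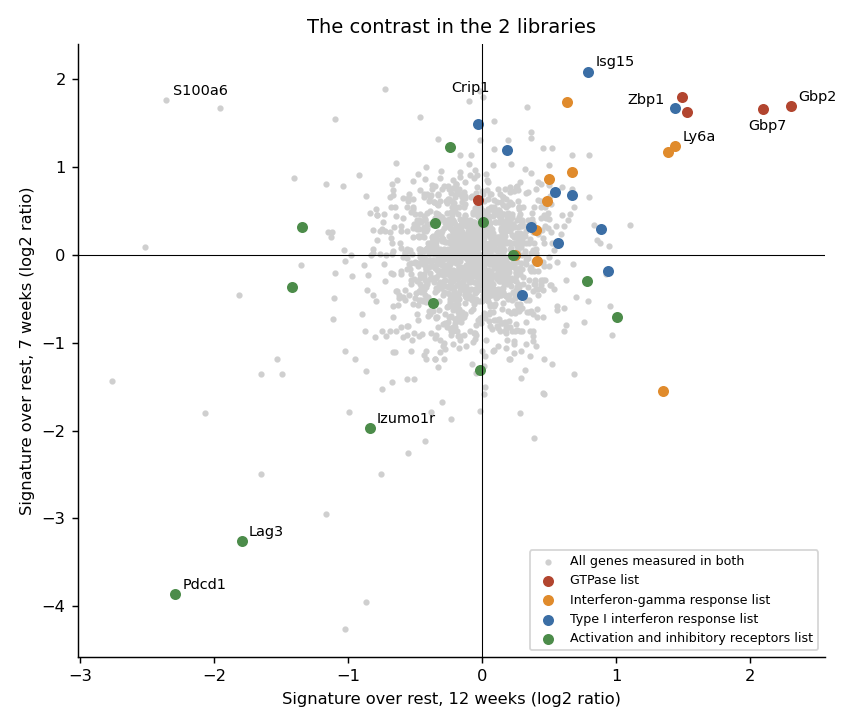
Log2 ratio of CPM in signature cells over the rest at 12 weeks (x axis) and 7 weeks (y axis) for genes measured in both libraries with UMIs in every group. Grey points are all such genes, coloured points members of 4 lists. Gbp2, Gbp7, Ly6a and Zbp1 lie high in both, Pdcd1, Lag3 and Izumo1r low in both, and S100a6 low at 12 weeks and high at 7 weeks, where 1 cell held 83.5% of its signature UMIs.

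Naive T cell genes outside the gate stood close to the rest. At 12 weeks all 13 measured members lay between 0.789 (Foxp1) and 1.56 (Klf3) and none was called, with a median log2 ratio of 0.23. Satb1, a chromatin organiser, had 1.48 (1.14 to 1.90), Ccr7 1.21 (0.984 to 1.48) and Tcf7 0.911 (0.699 to 1.18). At 7 weeks 2 of 10 were lower, Foxp1 at 0.611 (0.363 to 0.990) and Txk at 0.613 (0.398 to 0.919), with a median of -0.28. Without the deepest cell none of the 10 was called. Immediate-early and stress genes differed little over all cells: of 19 measured at 12 weeks only Fosb was called, lower at 0.576 (0.320 to 0.980), and of 17 at 7 weeks none was, so the summed level was 9389.9 CPM and 9299 CPM at 12 weeks and 12108 CPM and 11942 CPM at 7 weeks. Without the deepest cell, however, the 7 week ratio of that sum was 1.14 (1.07 to 1.21), and the heat shock genes Dnajb1 at 1.71 (1.31 to 2.23) and Hspa1b at 1.5013 (1.02 to 2.18) were called higher.

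Inhibitory receptor transcripts were lower in signature cells at the threshold of 3 gating UMIs. Pdcd1, which encodes the inhibitory receptor PD-1, was at 20.6 CPM (8 UMIs) in signature cells and 101 CPM (106 UMIs) in the rest at 12 weeks, a ratio of 0.204 (0.0860 to 0.418), and at 7.22 CPM (1 UMI) and 105 CPM (32 UMIs) at 7 weeks, a ratio of 0.0686 (0.00168 to 0.410). Lag3, another inhibitory receptor, was at 46.3 CPM and 160.4 CPM at 12 weeks, a ratio of 0.289 (0.167 to 0.470), and at 14.4 CPM and 138 CPM at 7 weeks, a ratio of 0.104 (0.0123 to 0.402). Of the 12 week signature UMIs of Lag3, 1 cell held 83.3%, and of the 7 week UMIs of Pdcd1 in the rest, 1 cell held 50%. Izumo1r, the folate receptor FR4 of anergic and regulatory CD4 cells, was at 131 CPM and 234 CPM at 12 weeks, a ratio of 0.559 (0.405 to 0.759), and at 72.2 CPM and 283 CPM at 7 weeks, a ratio of 0.255 (0.118 to 0.492). Cells with a UMI of Izumo1r, Tbc1d4, Pdcd1 or Lag3 were 32.5% of signature cells (22.4 to 43.9%) and 47.5% of the rest (40.5 to 54.7%) at 12 weeks, and 35.0% (15.4 to 59.2%) and 51.9% (37.6 to 66.0%) at 7 weeks.

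Of 17 activation and inhibitory receptor genes measured at 12 weeks, 7 were lower, namely Pdcd1, Lag3, Izumo1r, Ctla4, Tnfrsf4, Il2rb and Cd44, and Cd69 and Nr4a1 were higher, with a median log2 ratio of -0.36. At 7 weeks 4 of 13 were lower, Pdcd1, Lag3, Izumo1r and Tnfsf8, and Cd5 was higher with 51.6% of its UMIs in 1 cell, with a median of -0.32. Without the deepest cell none of the 13 was higher and 5 were lower, with a median of -0.44, and Cd5 was at 1.37 (0.681 to 2.64). This contrast turned with the threshold. When cells with 2 gating UMIs were counted as signature cells, Pdcd1 was at 1.07 (0.726 to 1.58), Lag3 at 1.19 (0.886 to 1.61) and Ctla4 at 1.42 (0.816 to 2.48) at 12 weeks, and the list median at 0.0921. The GTPase median stayed between 1.304 and 1.78 over all settings tried at 12 weeks.

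The 10 lowest genes at 12 weeks by their upper bound were stromal: Dcn, Sparc, Col1a2, Col3a1, Col1a1, C3, Igfbp6, Lum, Serping1 and Clec3b. In each, 1 cell held at least 98.6% of the UMIs of the rest. Without it 98 genes were higher (2.31% of 4242) and 168 lower (3.96%), and the 10 lowest were S100a4, Cxcr6, S100a6, Ikzf2, Ctla4, Pdcd1, Nkg7, Lag3, Bcl2a1b and Mrrf. S100a4, a calcium-binding protein of effector and memory cells, was at 23.1 CPM in signature cells and 157 CPM in the rest, a ratio of 0.148 (0.0664 to 0.287), and at 101 CPM and 273 CPM at 7 weeks, a ratio of 0.370 (0.194 to 0.656). Cxcr6, a receptor of tissue-homing effector cells, was at 5.14 CPM and 63.6 CPM at 12 weeks, a ratio of 0.0809 (0.00960 to 0.304), and at 72.2 CPM and 49.4 CPM at 7 weeks, a ratio of 1.46 (0.588 to 3.48). Ikzf2, which encodes Helios, had 0.175 (0.0738 to 0.355) and 1.06 (0.547 to 1.99). In both libraries 13 genes were lower: Pdcd1, Lag3, Izumo1r, Tbc1d4, Maf, Cd200, Nkg7, S100a4, Lgals3, Rgs16, Rilpl2, Tesc and Gna13. They are 16.0% of the 81 genes lower at 12 weeks and tested at 7 weeks and 17.8% of the 73 lower at 7 weeks, where 4.59% of all genes tested in both were lower. Of the 81, 44 (54.3%) lay below 1 at 7 weeks, near the 51.0% of all genes, and 8 were higher there. Rilpl2 and Gna13 were not called at 7 weeks without the deepest cell, at 0.481 (0.195 to 1.03) and 0.529 (0.214 to 1.15), and Cd200 not at 12 weeks without the stromal cell, at 0.559 (0.290 to 1.005). Several 7 week calls leaned on single cells of the rest. The largest share of 1 cell was 64.9% for Lgals3, 62.7% for S100a4, 52.2% for Nkg7, 50% for Pdcd1 and 47.4% for Rgs16. S100a4 was seen in 25% of 7 week signature cells and 17.3% of the rest.

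Levels were also followed across the range of gating UMIs, where the upper groups are signature cells and the lower ones the rest. In 12 week cells with 0, 1 to 2, 3 to 4 and 5 or more gating UMIs (87, 115, 45 and 35 cells), Ifi47 was at 144, 163, 345 and 574 CPM. Gbp2 was at 55.1, 61.3, 232 and 360.4 CPM, Gbp7 at 57.5, 70.7, 284 and 276 CPM, and Ly6a at 273, 521, 814 and 1549 CPM. Ly6a was higher in each group than in the one below, also within the rest, though the stromal cell, in the group of 1 to 2, held 22.9% of the Ly6a of the rest. Gbp2 and Gbp7 had overlapping intervals between the 2 groups below 3 UMIs and between the 2 groups above it. At 7 weeks (35, 17, 12 and 8 cells) Ifi47 was at 106, 124, 219.9 and 470.1 CPM and Gbp2 at 70.4, 47.7, 176 and 228 CPM. The highest 7 week group holds both deep cells, and its levels without them were not computed. Izumo1r at 12 weeks was at 180, 270, 166 and 90.1 CPM, and Ccr7 at 273, 309, 369 and 344 CPM.

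Just inside and just outside the threshold the 12 week cells compared as follows. The 30 cells with exactly 3 gating UMIs had 237 CPM of Gbp2 (164 to 332) and 726 CPM of Ly6a (593 to 879). The 38 cells with exactly 2 had 73.0 CPM of Gbp2 (41.8 to 119) and 365 CPM of Ly6a (290 to 455). At 7 weeks the 8 cells with exactly 3 had 75.7 CPM of Gbp2 (15.6 to 221), and the 7 cells with exactly 2 had 129 CPM (41.9 to 301).

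**Figure D5:**
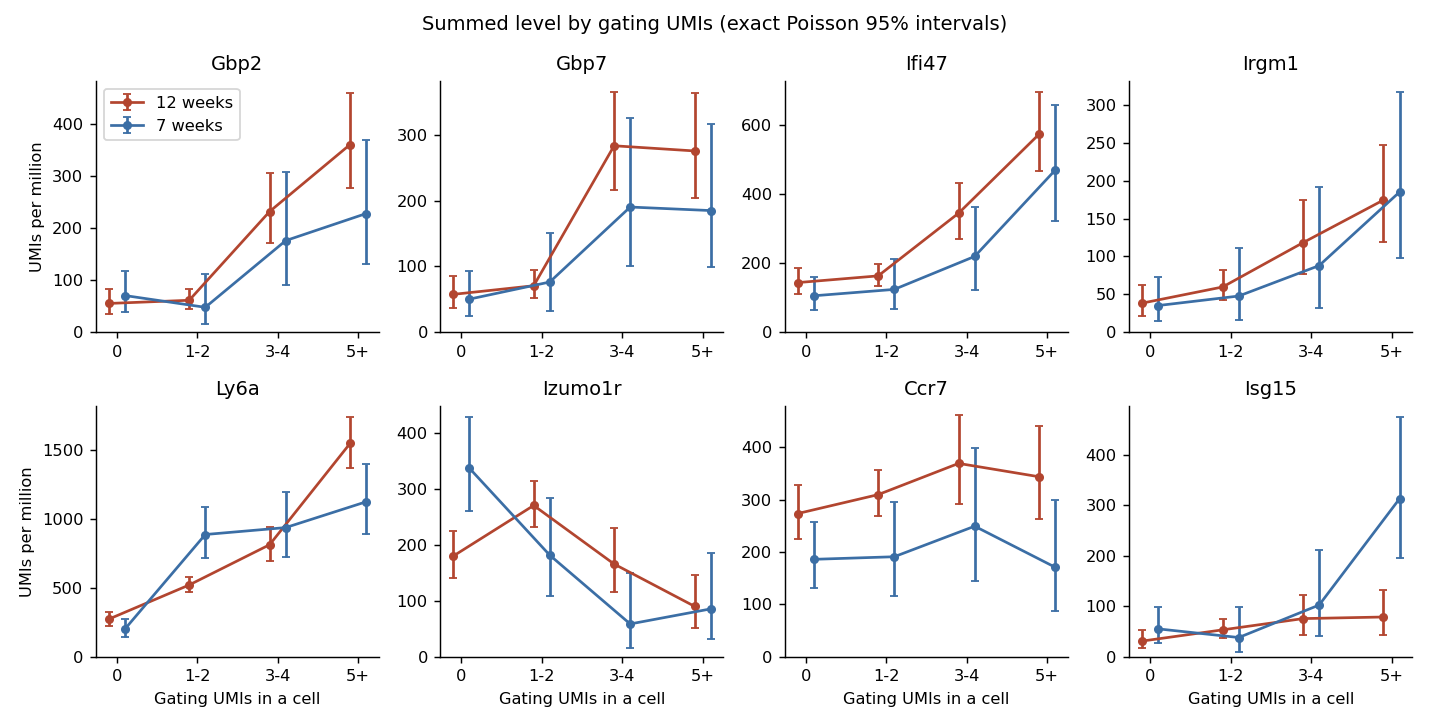
CPM (y axes, linear from 0) of 8 genes in naive-type CD4 cells by their gating UMIs (x axes: 0, 1-2, 3-4, 5+), at 12 and 7 weeks. Points are summed levels and bars exact Poisson 95% intervals. Ly6a runs through 273, 521, 814 and 1549 at 12 weeks, Izumo1r ends at 90.1, and Isg15 at 7 weeks reaches 313 in the highest group. That Isg15 point rests on 22 UMIs in 3 of 8 cells.

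The same split by 3 gating UMIs was made in other classes to see which genes went with it there. In naive-type CD8 cells of 12 weeks GTPases outside the gate were at 1523 CPM and 697 CPM, a ratio of 2.19 (1.94 to 2.46), where naive-type CD4 cells had 2.75 (2.46 to 3.07). Gbp7 had 4.28 (3.14 to 5.87) in naive-type CD4, 2.06 (1.44 to 2.94) in naive-type CD8 and 6.08 (3.81 to 9.53) in B cells of 12 weeks. At 7 weeks Gbp7 had 3.17 (1.67 to 6.14) in naive-type CD4 and 1.78 (0.878 to 3.51) in naive-type CD8 cells. Other CD4 cells had a GTPase ratio of 2.43 (2.21 to 2.68) and 2.73 (2.37 to 3.16), and Foxp3-positive cells 2.56 (2.13 to 3.08) and 1.97 (1.57 to 2.47). B cells of 12 weeks had 3.24 (2.84 to 3.69) and those of 7 weeks, with 6 cells over the threshold, 1.02 (0.592 to 1.64). Lag3 at 12 weeks had 1.99 (1.79 to 2.21) in other CD4 cells, 1.23 (0.966 to 1.56) in Foxp3-positive cells and 0.637 (0.328 to 1.16) in naive-type CD8 cells, where naive-type CD4 cells had 0.289 (0.167 to 0.470). At 7 weeks it was below 1 in other CD4 cells too, at 0.638 (0.488 to 0.822), at 1.77 (1.37 to 2.28) in Foxp3-positive cells, and at 0 UMIs against 67 in naive-type CD8 cells, where the upper bound was 0.145. Cd69 had 1.002 (0.822 to 1.22) in naive-type CD8 and 0.995 (0.817 to 1.21) in other CD4 cells of 12 weeks. At 7 weeks it had 1.56 (1.17 to 2.09) in naive-type CD8 cells, where naive-type CD4 cells had 0.814 (0.574 to 1.14). None of these differences between classes was tested, there being 1 library per age.

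Between the ages, GTPases of signature cells were compared as well. Over 7 list members measured, none was called higher or lower at 12 weeks over 7 weeks, where 2.72% of 1803 genes were higher (49) and 6.88% lower (124). Without the next deepest 7 week cell 1 of the 7 was called higher, where 64 of 1753 genes were. The summed list held 1640 CPM in 12 week and 1394 CPM in 7 week signature cells, so the ratio was 1.18 (1.00004 to 1.39). It was 1.10 (0.930 to 1.31) without the deepest and 1.37 (1.14 to 1.65) without the next deepest 7 week cell. In the rest it was at 597 CPM and 494 CPM, a ratio of 1.21 (1.01 to 1.45). Isg15 was at 77.1 CPM and 209 CPM, a ratio of 0.368 (0.214 to 0.636), and Il7r, the receptor chain for a naive T cell survival cytokine, at 280.3 CPM and 93.9 CPM, a ratio of 2.98 (1.67 to 5.78). In the rest the matching ratios of 12 over 7 weeks were 0.903 (0.496 to 1.74) for Isg15 and 1.475 (1.09 to 2.03) for Il7r, where 2.99% of 4217 genes were higher (126) and 6.26% lower (264). The summed interferon-gamma list had a ratio of 1.02 (0.933 to 1.12) and the type I list 0.976 (0.886 to 1.08), but without the next deepest 7 week cell they were 1.15 (1.04 to 1.27) and 1.24 (1.11 to 1.38). Without the deepest 7 week cell 42 genes were higher (2.46% of 1709) and 83 lower (4.86%), and the type I ratio was 0.839 (0.761 to 0.927).

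Transcripts of interferons were rare in these cells. Ifng was at 11 UMIs in 7 of the 80 signature cells and 26 UMIs in the rest at 12 weeks, and at 4 UMIs in 2 of 20 cells and 21 UMIs in the rest at 7 weeks. Over the naive-type CD4 gate it was at 25.6 CPM (18.1 to 35.4) and 56.5 CPM (36.6 to 83.5). Other CD4 cells had 186 CPM (169 to 204) and 221 CPM (198 to 246), other CD8 cells 213 CPM (190.2 to 238) and 280 CPM (239.6 to 324), and B cells 4.41 CPM (2.20 to 7.89) and 12.5 CPM (5.41 to 24.7). All kept cells held 1560 UMIs of Ifng at 12 weeks and 1015 at 7 weeks. Ifnb1 had 4 UMIs at 12 weeks and none at 7 weeks, and Ifna1, Ifna2, Ifna4 and Ifnl2 had none in either library. Il27 had 28 and 16 UMIs, none of them in signature cells.

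Markers of other cells were compared because free RNA or doublets can carry them. The 4 regulatory T cell genes were at 30.9 CPM in signature cells and 171 CPM in the rest at 12 weeks, all from Ikzf2, Ctla4 and Il2ra, and at 152 CPM and 171 CPM at 7 weeks, and Foxp3 was 0 by the gate. The 7 B cell genes were at 201 CPM and 259 CPM at 12 weeks and 246 CPM and 629 CPM at 7 weeks. The 6 myeloid genes were at 229 CPM and 281 CPM, and at 253 CPM and 461 CPM. In the 4 plasmacytoid dendritic cell genes, at 206 CPM and 107 CPM at 12 weeks and 202 CPM and 336 CPM at 7 weeks, nearly all 12 week UMIs were of Bst2, itself an interferon-induced gene, with 78 UMIs in signature cells, next to 1 UMI of Siglech. Acinar genes were at 221 CPM and 283 CPM at 12 weeks and 21.7 CPM and 23.05 CPM at 7 weeks, and endocrine genes at 123 CPM and 200.2 CPM, and 14.4 CPM and 46.1 CPM. Erythroid genes were at 23.1 CPM and 25.6 CPM at 12 weeks, and 57.8 CPM and 19.8 CPM at 7 weeks, on 8 and 6 UMIs. NK cell genes were at 28.3 CPM and 12.3 CPM, and 50.6 CPM and 188 CPM. The ILC2 genes were at 0 UMIs except for 5 of Areg in the deepest 7 week cell. In the 7 week rest 1 cell held 122 of 191 B cell, 71 of 140 myeloid, 73 of 102 plasmacytoid dendritic cell and 50 of 57 NK cell UMIs. The part of these transcripts in the contrast was not tested.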

How the data were processed

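Each library was deposited by the authors as a matrix of raw UMI counts per gene and barcode. The submitters' processing notes name Cell Ranger 1.3.1 and the mm10 build, and the sources used here give neither the annotation version nor how cells were called. Totals were 19288252 UMIs over 2812 barcodes at 12 weeks and 8701184 over 1113 at 7 weeks. A barcode needed 200 genes and no more than 10% of UMIs from mitochondrial genes, which 8 and 4 barcodes failed. The gate used raw counts. Scrublet, in scanpy 1.11.5, marked 22 (0.785%) and 2 (0.180%) kept barcodes, none of them in the gate, and none was removed.

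Counts were summed per group and scaled to 1000000 UMIs of that sum (CPM). Ratios compare groups within a library, except those of 12 over 7 weeks, and 0.5 UMI was added for the log2 ratios behind list medians. All genes of the gate, and mitochondrial, ribosomal protein, haemoglobin, acinar and endocrine genes, were left out of the contrast. The text names the 20 higher and 10 lower genes of 12 weeks whose interval bound nearest 1 was farthest from 1, every GTPase member, and up to 4 members of each other list past 1.5-fold. Some genes that this rule picks are not reported here. Other genes were named after their values were seen: the 10 lowest genes without the stromal cell, genes called in both libraries, and those that single cells or age brought up. The members and lists were chosen with earlier results of these data known. With 1 library per age, and members chosen by their own counts, no test was made. Promoters came from RefSeq and gene spans from GENCODE, both on GRCm38, the assembly that mm10 names. The computation of ratios and calls was tested on simulated data. Alternatives covered the low-count filter, scaling, gating threshold, depth and single cells, and the single cells to leave out were chosen after seeing the data. Work was done in Python 3.11.15 with numpy 2.4.6, scipy 1.17.1, pandas 2.3.3 and matplotlib 3.10.9.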

Additional observations from a re-analysis of the deposited data

Results flagged for a closer look

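The contrast of signature cells with the rest pointed to opposite sides in the libraries for the naive T cell and glycolysis lists and for 10 genes. The helper lineage list did so too, at -0.17 at 12 weeks and 1.32 at 7 weeks, but with only 2 genes measured at 7 weeks. These differences between libraries were not tested, since each age is a single library. The naive T cell list had a median log2 ratio of 0.23 at 12 weeks and -0.28 at 7 weeks, and the glycolysis list -0.26 and 0.32. Without the deepest 7 week cell the 7 week medians were -0.19 and -0.18, so glycolysis then lay below 0 in both libraries.

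Of the genes, S100a6 had a ratio of 0.195 at 12 weeks and 3.38 at 7 weeks, Anxa2 0.258 and 3.20, Lgals1 0.467 and 2.93, and Rgs1 0.607 and 3.71. In each, 1 cell of 7 weeks held 83.5%, 62.9%, 73.1% and 68.8% of their signature UMIs, and without the deepest cell the 7 week ratios were 0.672, 1.43, 0.951 and 1.39. S100a10 had 0.632 and 1.60, and Ap2m1 0.627 and 1.76, with 7 week ratios of 1.17 and 1.36 without that cell. Psma5, a proteasome subunit, had 0.530 and 1.88, and kept the 7 week side without it at 1.98. The chemokine gene Ccl5 had 0.488 and 1.73, with 74.6% of its 7 week signature UMIs in 1 cell. The interferon-induced genes Irf8 and Ifi27 lay the other way. Irf8 had 2.55 and 0.343, where 1 cell held 87.5% of the 7 week UMIs of the rest, and Ifi27 had 1.61 and 0.390. Without the deepest 7 week signature cell neither was called at 7 weeks, Irf8 at 0.413 (0.126 to 1.07) and Ifi27 at 0.470 (0.191 to 1.007), and without that cell of the rest Irf8 was at 2.61 (0.562 to 13.2).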

How the results depend on the processing

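No paired analysis was possible because each age had 1 library and the labels give no shared replicate numbers. Among values that answer a comparison, 368 were counted as kept under the alternatives and 45 as moved. A list median counted as kept could still change sign. The 7 week glycolysis median went from 0.32 to -0.18 without the deepest cell, which was not counted as a move. The 7 week naive T cell median ran from -0.44 to 0.11 over the alternatives, with no move counted. Among values of single genes 2263 were counted as kept, 118 as moved and 10 as reversed. The cause of each move was not tested. Gbp2 stayed between 2.90 and 5.45, Gbp7 between 2.71 and 4.97 and Ifi47 between 2.47 and 3.57 over 16 alternatives at 12 weeks. Some of these could not change a gene's ratio. The low-count filters only alter which genes are counted, and Scrublet marked no gated cell to remove. Their values are among those counted as kept, and say nothing on stability.

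The share of gated cells with the signature was 41.8% at 12 weeks at 2 or more gating UMIs, and 12.4% at 12 weeks and 11.1% at 7 weeks at 5 or more. Thinned to 2000 UMIs it was 10.3% and 8.33%, and thinned to 1000 UMIs 3.19% and 0%. In other classes thinning to 2000 UMIs gave 4.23% and 3.30% of other CD4, 6.28% and 4.62% of naive-type CD8, 1.75% and 2.06% of other CD8, 6.17% and 3.45% of Foxp3-positive and 0.208% and 0.893% of B cells at 12 and 7 weeks.

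At 12 weeks a filter of 10 UMIs gave 303 lower genes, no filter 165 higher and 303 lower, a rest with 0 gating UMIs 66 and 90, and a threshold of 2 UMIs 112 lower. The middle 0.5 of cells by depth gave 54 higher and 50 lower, thinning to 2000 UMIs 41 and 71, leaving out each gene's top cell 127 lower, and leaving out cells with Izumo1r, Tbc1d4, Pdcd1 or Lag3, chosen after seeing the data, 70 lower. At 7 weeks the filter of 10 UMIs gave 122 higher and 150 lower, no filter 160 and 150, the middle 0.5 by depth 14 and 27, thinning 14 and 12, leaving out the top cell 31 higher, and leaving out the Izumo1r group 13 and 13.

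List medians moved for activation genes to 0.0921 at 12 weeks with a threshold of 2 UMIs and to 0.36 at 7 weeks without the Izumo1r group. At 7 weeks glycolysis was at -0.45 in the middle 0.5 by depth and -0.369 when thinned, and the type I list at -0.28 when thinned. Single genes reversed at 12 weeks as follows. Ctla4 was at 1.42, Pdcd1 at 1.07 and Lag3 at 1.19 with a threshold of 2 UMIs, and Ctla4 at 1.96 without the Izumo1r group. Nampt was at 0.983 with a threshold of 5 UMIs, and Clec3b at 1.07 against a rest with 0 gating UMIs. Without the top cell, or without the stromal cell, a choice made after seeing the data, Col3a1 was at 5.35 and Clec3b at 2.68. Median-of-ratios scaling shifted log2 ratios by 0.08 at 12 weeks. With 20 signature cells, 1599 genes reached 30 UMIs at 7 weeks, where 4297 did at 12 weeks.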

Other observations

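Genes of other T cell programmes separated the groups little or unevenly. The helper lineage list holds transcription factors, cytokines and receptors that mark polarised CD4 cells. Of 17 listed genes 5 were measured at 12 weeks, of which Ccl5 was lower at 0.488 (0.332 to 0.698), and the other 4 were not called. Cxcr3, a chemokine receptor induced with the Th1 programme, was at 66.8 CPM in signature cells and 75.9 CPM in the rest, a ratio of 0.881 (0.543 to 1.39). Gata3, the Th2 factor, was at 48.9 CPM and 49.4 CPM, a ratio of 0.990 (0.553 to 1.70). At 7 weeks Gata3 was at 217 CPM and 59.3 CPM, a ratio of 3.66 (1.97 to 6.97), and without the deepest cell at 1.18 (0.442 to 2.84). The list medians were -0.17 at 12 weeks and 1.32 at 7 weeks, the second over 2 genes. No UMI of Il17a was seen in either group of either library.

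Of 9 glycolysis genes measured at 12 weeks, Gapdh was lower, at 478 CPM in signature cells and 792 CPM in the rest, a ratio of 0.603 (0.512 to 0.708), and the other 8 were not called. At 7 weeks Gapdh was at 989.7 CPM and 715 CPM, a ratio of 1.385 (1.11 to 1.72), and without the deepest cell at 0.841 (0.632 to 1.11). None of 8 measured genes was called at 7 weeks.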
